A study of Mus musculus with 9 samples.

Results

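A set of 10 genes of the glutathione S-transferase (GST) family was followed in the mouse lens: *Gstm1*, *Gstm2*, *Gstm4*, *Gstm5*, *Gstm6*, *Gstm7*, *Gstp1*, *Gsta4*, *Gsto1* and *Gstt1*. They were taken by symbol, and each symbol matched 1 gene identifier, so that the 10 members stood among 55416 identifiers counted. RNA was sequenced from whole lenses of mouse embryos at embryonic stage E16.5, with 1 library from the pair of lenses of each embryo. The 4 *Atf4* null embryos were homozygous for the Atf4tm1Tow allele, a germline null in which a neomycin cassette replaces exons of the gene in every tissue, and the 5 wildtype embryos were littermates of the same crosses on a mixed B6;129 background. The labels name no treatment in either group. ATF4 is a transcription factor of the integrated stress response, and the comparison asks how the RNA levels of GST genes differ between lenses with and without it.

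GST enzymes join glutathione, a tripeptide that holds a reactive cysteine, to electrophiles such as lipid aldehydes and quinones. The conjugates leave the cell through export pumps and are trimmed outside it to mercapturates. In the lens, where fiber cells make no new protein once they are mature, glutathione is the main small thiol and is kept mostly in its reduced form. Among the members, the mu class is encoded by the *Gstm* genes, which lie side by side in 1 cluster, and the pi class by *Gstp1*. *Gsta4* encodes an alpha class enzyme with a preference for 4-hydroxynonenal and related products of lipid peroxidation. *Gsto1* encodes an omega class enzyme that works mainly as a thiol transferase and dehydroascorbate reductase, and *Gstt1* encodes a theta class enzyme that handles small halogenated molecules.

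Gene counts ran from 8409779 to 8906996 in the wildtype libraries and from 7440807 to 8696699 in the *Atf4* null libraries. *Atf4* itself was at 119 to 155 CPM (counts scaled to a library of 1000000) in wildtype and at 0.582 to 10.6 CPM in *Atf4* null libraries, so the genotype labels and the counts went together. The tissue label was checked against marker genes of the lens. Markers of lens fibers summed to between 46600 and 88900 CPM in wildtype and between 33700 and 79000 CPM in *Atf4* null libraries, with *Lim2* the one fiber marker listed without a count. Markers of the lens epithelium, the cell layer that covers the front of the lens, summed to between 3270 and 3680 CPM in wildtype and to between 1990 and 2410 CPM in *Atf4* null libraries. In wildtype replicate 5, 2.68% of counts came from skeletal muscle and mesenchyme markers, a share of 0.0424% to 0.0908% elsewhere (8 libraries), and where a member's call changed without that library both values are given.

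The *Gstm* genes resemble each other closely, and the seventh coding exon shows how closely. It is 111 bases long in the canonical transcript of each of the 7 mouse genes, all on chromosome 3. It is printed here 5′ to 3′ from GRCm39, because the counting discarded reads that aligned to more than 1 place and these are the genes where that could matter. Capitals mark bases that differ from *Gstm1*. *Gstm3* is no member and is shown because it is the nearest relative of *Gstm1*.
Gstm1, chr3:107922069-107922179, minus strand: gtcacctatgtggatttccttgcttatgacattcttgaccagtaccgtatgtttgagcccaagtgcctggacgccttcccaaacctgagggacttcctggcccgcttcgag
Gstm3, chr3:107873403-107873513, minus strand: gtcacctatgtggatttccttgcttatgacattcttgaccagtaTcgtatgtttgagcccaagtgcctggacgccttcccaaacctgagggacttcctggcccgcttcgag
Gstm2, chr3:107891252-107891362, minus strand: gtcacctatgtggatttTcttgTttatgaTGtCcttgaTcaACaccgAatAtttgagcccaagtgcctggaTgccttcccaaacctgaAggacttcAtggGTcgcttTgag
Gstm6, chr3:107848309-107848419, minus strand: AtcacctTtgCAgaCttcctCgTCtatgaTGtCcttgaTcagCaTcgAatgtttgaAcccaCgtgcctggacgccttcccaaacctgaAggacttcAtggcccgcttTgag
Gstm4, chr3:107949452-107949562, minus strand: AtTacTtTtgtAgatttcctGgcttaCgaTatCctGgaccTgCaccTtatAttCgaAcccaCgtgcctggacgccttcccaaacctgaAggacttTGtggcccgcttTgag
Gstm7, chr3:107836186-107836296, minus strand: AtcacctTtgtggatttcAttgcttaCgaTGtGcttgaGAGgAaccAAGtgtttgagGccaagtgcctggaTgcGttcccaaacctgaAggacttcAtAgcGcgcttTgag
Gstm5, chr3:107805482-107805592, plus strand: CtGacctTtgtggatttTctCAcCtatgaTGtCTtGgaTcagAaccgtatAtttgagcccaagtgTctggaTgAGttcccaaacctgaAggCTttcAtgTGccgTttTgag
Against *Gstm1*, this exon differed at 1 base in *Gstm3*, at 16 in *Gstm2*, at 20 in *Gstm6*, at 21 in *Gstm4*, at 22 in *Gstm7* and at 27 in *Gstm5*. Identical bases were also taken as a share of the longer coding sequence of each pair. By this measure *Gstm1* shared 89.4% with *Gstm3*, 85.9% with *Gstm2*, 82.9% with *Gstm6*, 82.6% with *Gstm7*, 80.1% with *Gstm4* and 69.6% with *Gstm5*. The coding sequence of *Gstm5* is longer, at 672 against 654 bases, which lowers its share. *Gstm5* thus stood apart from the rest of the cluster in sequence. *Gstp1* and its neighbour *Gstp2* were identical at 98.1% of coding bases.

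How much of each transcript could give a unique read was computed from the genome. Every stretch of 75 bases of the canonical transcript was looked up in the rest of the genome and in the transcripts of other genes, on both strands and with exact matches. In *Gstm4*, *Gstm5*, *Gstm7*, *Gsta4*, *Gsto1* and *Gstt1*, 100% of the stretches were found in the gene alone. The share was 96.2% for *Gstm6*, 84.2% for *Gstm1* and 68.2% for *Gstm2*. *Gstm1* shared stretches with the pseudogene *Gstm2-ps1* on chromosome 5 (8.88%) and with *Gstm3* (5.36%), and *Gstm2* shared 24.8% with the pseudogene *Gm6665* on chromosome 18. *Gstp1* was the member with the least sequence of its own, at 48.1%, since 51.9% of its stretches were also in *Gstp2* and 33.4% in the pseudogene *Gstp-ps* on chromosome 1. *Gstp1* levels are therefore uncertain, and reads from the shared parts of *Gstm2* and *Gstm1* would not have been counted for them. The search used the reference genome, and whether the mixed B6;129 background gave both groups the same sequence in the cluster was not tested. The share of reads set aside as not unique was 5.03% to 5.57% in wildtype and 5.06% to 5.74% in *Atf4* null libraries.

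**Figure D1:**
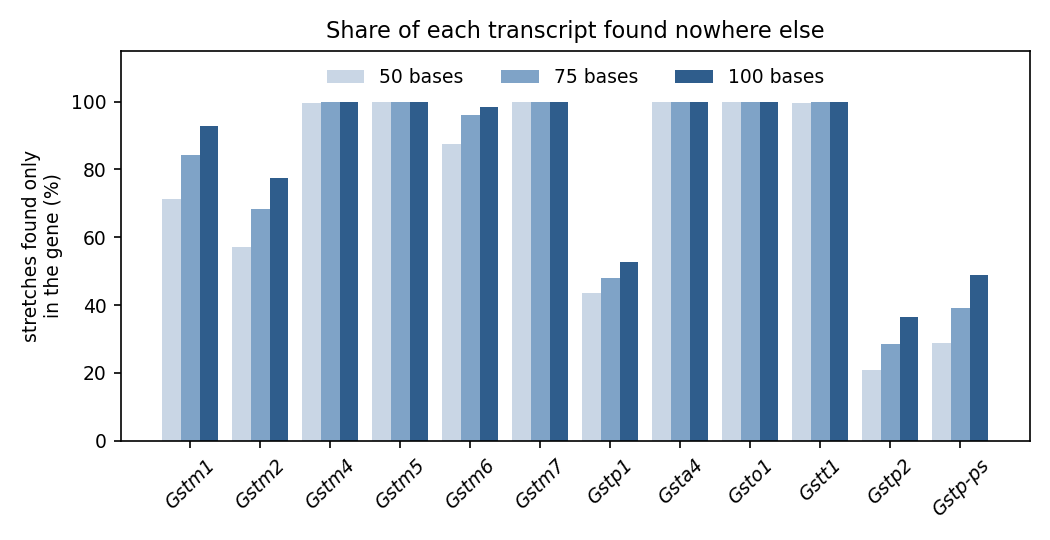
Share of stretches of the canonical transcript (%, vertical axis) that occur in the gene alone, for stretches of 50, 75 and 100 bases (shades), for the 10 members and for *Gstp2* and *Gstp-ps*. *Gstp1* is the lowest of the members, with 48.1% at 75 bases, and *Gstm2* and *Gstm1* are next at 68.2% and 84.2%.

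The levels of the members spanned a wide range. In wildtype lenses, in FPKM (CPM divided by the summed exon length in kilobases, mean ± SD, n = 5), *Gstp1* was highest at 64.5 ± 12.3, followed by *Gstm5* at 42.6 ± 4.56 and *Gstm1* at 35.4 ± 10. *Gsta4* (7.76 ± 1.76), *Gstm7* (4.35 ± 1.48), *Gstm4* (3.7 ± 1.77), *Gstm2* (2.69 ± 1.86), *Gsto1* (1.97 ± 0.54) and *Gstm6* (1.51 ± 0.401) came next, and *Gstt1* was lowest at 0.236 ± 0.207. Neighbours in this order overlapped between libraries for *Gstm5* and *Gstm1*, and all the way from *Gstm7* to *Gstm6*. *Gstp1* lay above *Gstm5*, *Gstm1* above *Gsta4*, *Gsta4* above *Gstm7* and *Gstm6* above *Gstt1* in every wildtype library. When the longest transcript was taken as the gene's length, *Gstm1* passed *Gstm5*, at 54.1 against 50.4 FPKM. *Gstm2* passed *Gstm4*, at 3.92 against 3.82 FPKM. The order within each of these pairs thus depends on the length chosen.

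In *Atf4* null lenses the order of the means was different. *Gstp1* remained highest at 60.6 ± 16.3 FPKM (n = 4) and *Gstm5* second at 31 ± 1.8 FPKM. *Gstm1* was at 5.87 ± 1.21 FPKM, close to *Gsta4* at 5.37 ± 1.4 FPKM, with overlapping libraries. *Gsto1*, at 2.46 ± 0.973 FPKM, was followed by mean by *Gstm4* (1.95 ± 1.22), *Gstm7* (1.38 ± 0.366), *Gstm2* (0.935 ± 1.12), *Gstm6* (0.303 ± 0.14) and *Gstt1* (0.117 ± 0.179), and from *Gsto1* down each gene overlapped the next between libraries. The 10 members together summed to 165 ± 22.4 FPKM in wildtype and 110 ± 15.3 FPKM in *Atf4* null lenses. The *Atf4* null sum was 66.8% of that in wildtype, and 80.5% for the 9 members without *Gstm1*. Without *Gstm1* the libraries overlapped, at 103 to 143 FPKM in wildtype and 87 to 118 FPKM in *Atf4* null lenses. The 6 *Gstm* members summed to 90.3 ± 12.7 and 41.4 ± 1.68 FPKM, so the *Atf4* null sum was 45.9% of that in wildtype. *Gstm1* made up 15.8% to 27.7% of the summed member FPKM in wildtype libraries and 3.58% to 6.3% in those of *Atf4* null lenses. *Gstp1* made up 33.1% to 42.1% and 43.7% to 61.7%, with neither range reaching into the other.

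**Figure D2:**
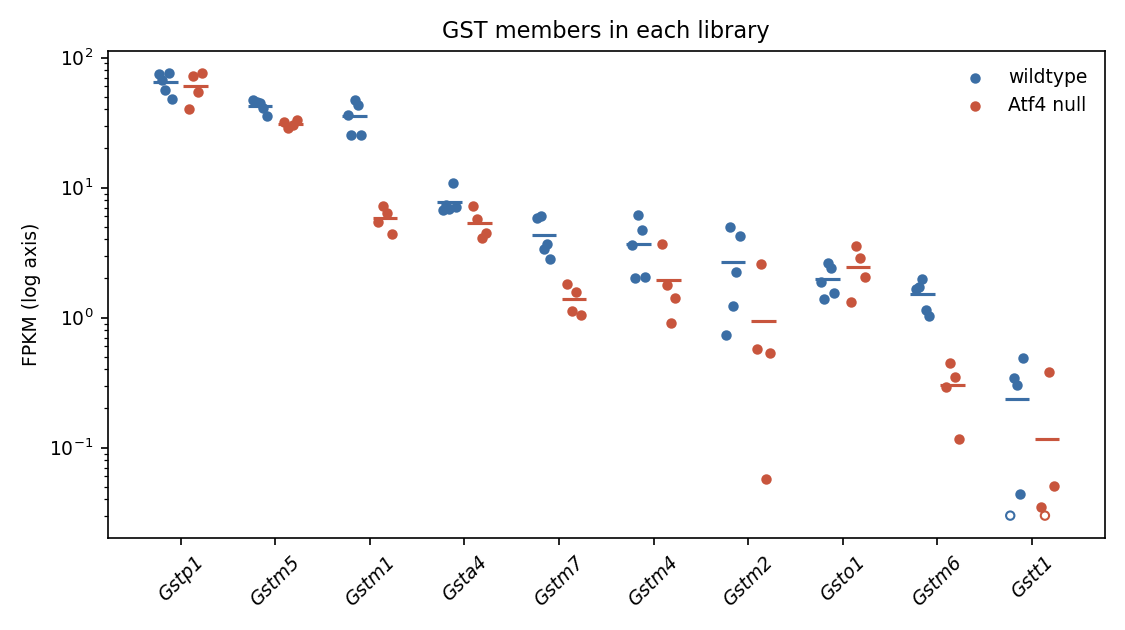
FPKM on a log axis for the 10 members in each wildtype (blue) and *Atf4* null (red) library, ordered by wildtype mean. Points are libraries, bars are group means, and open points at the bottom edge are libraries listed at 0. The 4 *Atf4* null points of *Gstm1*, *Gstm7*, *Gstm6* and *Gstm5* lie below all 5 wildtype points.

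The test was edgeR's quasi-likelihood test on the 14903 genes that passed the filter on low counts, with p-values adjusted by Benjamini-Hochberg over all of them, and a gene was called at an adjusted p under 0.05. Of the 10 members 9 were tested. *Gstm1*, *Gstm6* and *Gstm7* fell, none rose, and 6 were not called. Over all genes tested 5.9% were called, 3.67% lower and 2.23% higher without *Atf4*. At an unadjusted p under 0.05 there were 5 members, all lower, where 19.6% of all genes tested passed, and 10.2% passed and were lower. DESeq2 also called 0 members higher. The median log2 fold change (*Atf4* null minus wildtype) of the 9 members was -0.91, against 0.00072 over all genes tested. Of the 9 members 8 had a negative value. These are whole lenses, so fewer cells of a type and less RNA per cell cannot be told apart.

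**Figure D3:**
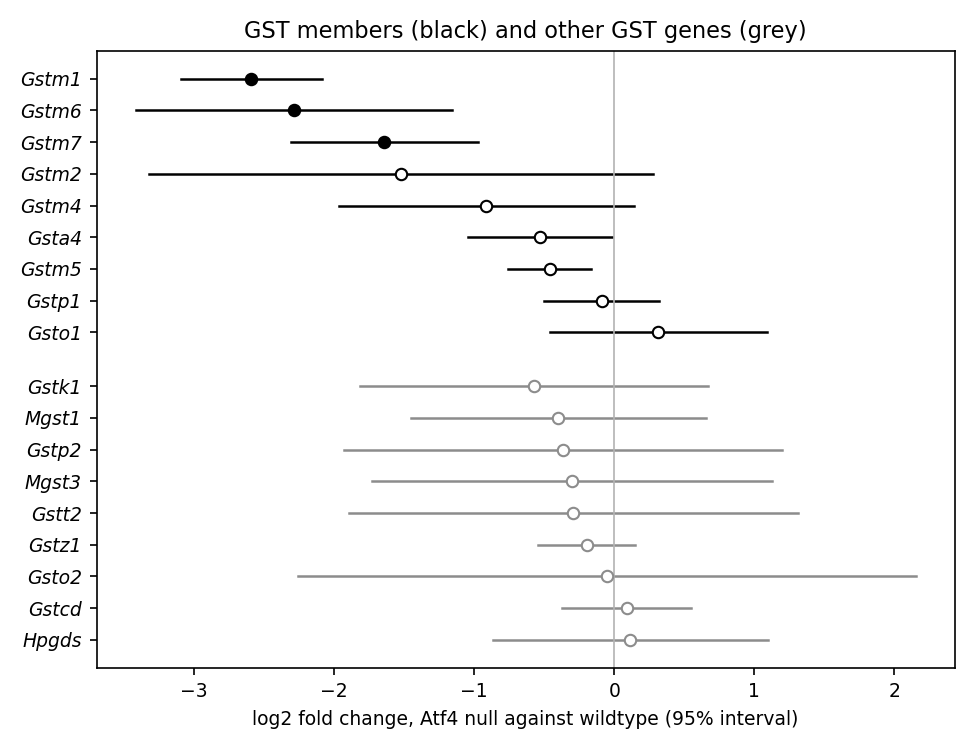
Log2 fold change of *Atf4* null against wildtype lenses (horizontal axis, points) with its 95% interval (lines) for the 9 members tested (black) and the 9 other GST genes tested (grey). Filled points have an adjusted p under 0.05, and only *Gstm1*, *Gstm6* and *Gstm7* are filled.

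*Gstm1* (ENSMUSG00000058135, chr3:107919380-107925380 on the minus strand of GRCm39), which encodes a mu class enzyme with broad activity toward epoxides and quinones, had the largest fold change of the members with all libraries in the fit. It was at 90.5, 64.1, 119, 108 and 63.6 CPM in wildtype replicates 1 to 5 and at 13.8, 18.1, 16.1 and 11.1 CPM in *Atf4* null replicates 1 to 4. The highest *Atf4* null library lay far below the lowest wildtype library. The fold change was 6.02-fold lower (95% interval 4.25 to 8.52), or -2.59 ± 0.23 (SE) on the log2 scale, with an adjusted p of 3.49e-05 in edgeR's quasi-likelihood test. By p-value *Gstm1* ranked 15 among the 14903 genes tested. Counts were 519 to 965 per wildtype and 76 to 151 per *Atf4* null library, so counting error was small beside the difference. An antisense long noncoding RNA gene, *Gm66775*, overlaps the start of *Gstm1* and is not among the identifiers counted. The strand setting of the counting is not given in the sources used here.

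*Gstm7* (ENSMUSG00000004035, chr3:107832278-107839187, minus strand), another mu class gene, was also lower. It was at 24.4, 25.3, 14.2, 15.3 and 11.9 CPM in the wildtype libraries and at 7.58, 4.68, 6.58 and 4.37 CPM in the *Atf4* null libraries. Wildtype replicates 1 and 2 were the highest, and the groups did not overlap. The fold change was 3.12-fold lower (95% interval 1.97 to 4.96), a log2 fold change of -1.64 ± 0.31 (SE), with an adjusted p of 0.00673 in edgeR's quasi-likelihood test.

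*Gstm6* (ENSMUSG00000068762, chr3:107844454-107851103, minus strand) was the least abundant of the mu class genes called lower. It was at 6.16, 6.42, 7.41, 4.3 and 3.86 CPM in the wildtype libraries and at 1.1, 1.68, 1.32 and 0.437 CPM in the *Atf4* null libraries. These values rest on 34 to 60 counts per wildtype library and on 3 to 14 counts per *Atf4* null library. The groups did not overlap, and *Atf4* null replicate 4 was lowest. The fold change was 4.88-fold lower (95% interval 2.23 to 10.7), a log2 fold change of -2.29 ± 0.52 (SE), with an adjusted p of 0.0203 in edgeR's quasi-likelihood test. The adjusted p was 0.053 when wildtype replicate 2 was left out and 0.0556 when wildtype replicate 3 was, just past the threshold, while the log2 fold change stayed at -2.24 and -2.17.

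*Gstm5* (ENSMUSG00000004032, chr3:107803137-107806005, plus strand), the member of the cluster least like the others in sequence, had the smallest spread. It was at 60.1, 58.1, 56.9, 52.1 and 45.5 CPM in the wildtype libraries and at 40.7, 36.8, 39 and 42.2 CPM in the *Atf4* null libraries. The groups came close to each other without overlapping. The log2 fold change was -0.46 ± 0.14 (SE), with a 95% interval of -0.75 to -0.16 and an adjusted p of 0.0709 in edgeR's quasi-likelihood test, which misses the threshold. DESeq2 gave an adjusted p of 0.0355, and edgeR without wildtype replicate 5, the library with muscle and mesenchyme markers, gave 0.0325. The long noncoding RNA gene *4933431E20Rik* spans *Gstm5* on the other strand. With *Gstm5* counted, 4 members had no overlap between the genotypes, all lower in *Atf4* null lenses, against 10.2% of all genes tested without overlap and 5.58% without overlap and lower.

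*Gstm2* and *Gstm4* did not pass the test. *Gstm2* (ENSMUSG00000040562, chr3:107889004-107893785, minus strand) was at 1.41, 9.5, 2.35, 4.3 and 8.14 CPM in the wildtype libraries and at 1.1, 4.92, 0.11 and 1.02 CPM in the *Atf4* null libraries. Libraries of the same genotype differed more for *Gstm2* than for any other member tested, from 11 to 77 counts in wildtype and from 1 to 41 counts in *Atf4* null lenses. Its log2 fold change was -1.52 with a 95% interval of -3.32 to 0.28 (adjusted p = 0.349, edgeR's quasi-likelihood test). Single libraries moved this value, to -2.79 without *Atf4* null replicate 2 (adjusted p = 0.121) and to -1.13 without *Atf4* null replicate 3 (adjusted p = 0.52), and without replicate 2 it passed that of *Gstm1* (-2.70). *Gstm4* (ENSMUSG00000027890, chr3:107947721-107952210, minus strand) was at 7.83, 4.32, 13.2, 10.1 and 4.39 CPM in the wildtype libraries and at 7.97, 3.84, 1.97 and 3.06 CPM in the *Atf4* null libraries. *Atf4* null replicate 1 lay within the wildtype range and the other 3 *Atf4* null libraries lay below it. Its log2 fold change was -0.91 with a 95% interval of -1.97 to 0.14 (adjusted p = 0.337, edgeR's quasi-likelihood test), and without *Atf4* null replicate 1 it was -1.42 (adjusted p = 0.135). Both intervals hold falls as large as that of *Gstm7* as well as no change.

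Within the cluster the members shifted by different amounts. The ratio of each pair of *Gstm* members was taken within each library, which removes the library's scaling, and the 15 pairs were compared between genotypes with a two-sided exact permutation test. These pairs were examined after the members' values had been seen. The log2 ratio of *Gstm5* to *Gstm1* was -0.67 ± 0.40 (SD) in wildtype and 1.44 ± 0.39 in *Atf4* null libraries, a shift of 2.11. The shift of *Gstm5* relative to *Gstm6* was 1.89, and that relative to *Gstm7* was 1.16. The log2 ratio of *Gstm1* to *Gstm4* shifted by -1.60. These 4 ratios did not overlap between the genotypes and had an exact permutation p of 0.0079, the smallest the design allows, and an adjusted p of 0.03 over the 15 pairs. *Gstm1*, *Gstm6* and *Gstm7* were therefore shifted further down than *Gstm5*, and *Gstm1* further than *Gstm4*. The other 11 pairs were not called, with adjusted p from 0.14 to 0.81 in the exact permutation test. Among them, *Gstm6* and *Gstm1* shifted by 0.22 relative to each other (adjusted p = 0.63, exact permutation test) and *Gstm7* and *Gstm1* by 0.95 (adjusted p = 0.14, exact permutation test).

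**Figure D4:**
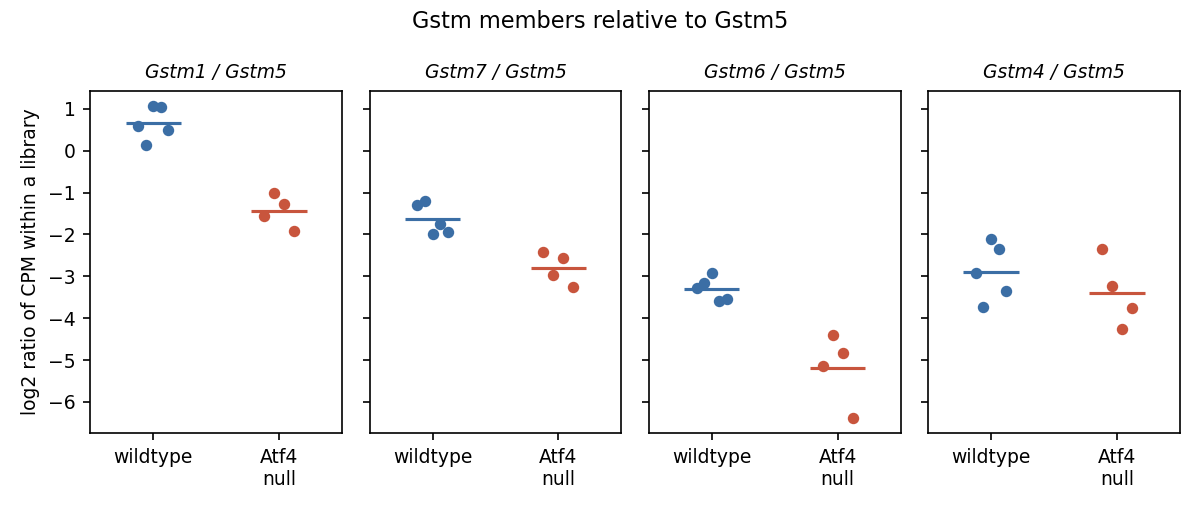
Log2 ratio of CPM of *Gstm1*, *Gstm7*, *Gstm6* and *Gstm4* to *Gstm5* within each library (vertical axis), with wildtype in blue, *Atf4* null in red and bars at the group means. The genotypes do not overlap in the first 3 panels and overlap for *Gstm4*.

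The *Gstm* cluster lies at chr3:107803137-107952210 in GRCm39, in the order *Gstm5*, *Gstm7*, *Gstm6*, *Gstm3*, *Gstm2*, *Gstm1* and *Gstm4*, with *Gstm5* on the plus strand and the others on the minus strand. *Gstm3* was without a count in any library. The window that reaches 250 kb to either side holds 42 of the genes counted, and 11 of those tested are not members. Their log2 fold changes lay between -0.38 and 0.50. None of the 11 was called by edgeR's quasi-likelihood test, and DESeq2 called none of the 13 it tested, with 2 at an unadjusted p under 0.05 in each tool. The genes in the window called by edgeR's quasi-likelihood test were thus *Gstm1*, *Gstm6* and *Gstm7*, and DESeq2 called *Gstm5* as well. *Gstm2*, which stands between *Gstm6* and *Gstm1*, was not called, and its interval includes falls of their size. The nearest tested genes on either side that overlap no member were *Csf1*, at a log2 fold change of 0.18 ± 0.35 (SE), and *Ampd2*, at -0.18 ± 0.18 (SE).

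**Figure D5:**
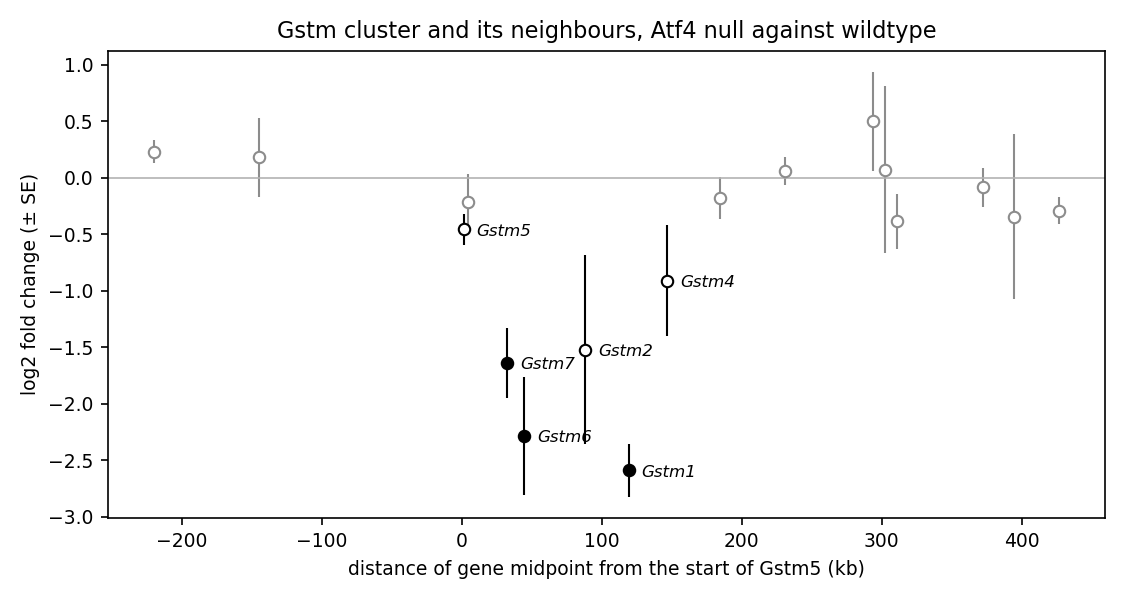
Log2 fold change ± SE (vertical axis) of each tested gene within 250 kb of the *Gstm* cluster against the distance of its midpoint from the start of *Gstm5* (kb). Black points are members, grey points are other genes, and filled points have an adjusted p under 0.05, so the called genes are *Gstm7*, *Gstm6* and *Gstm1*, while the 11 other genes lie between -0.38 and 0.50.

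The 250 bases before the annotated start of the canonical transcript are shown for the 3 called members and for *Gstm5*, because the ratios of the 3 to *Gstm5* differed between the genotypes. They are printed 5′ to 3′ on the strand of the gene, from GRCm39. Capitals mark matches to 3 motifs searched on both strands, namely TGATGCAA, the composite element that ATF4 and C/EBP proteins bind together, TGACNNNGC, the core of the antioxidant response element bound by NRF2, and TGANTCA, the AP-1 element when N is C or G. The latter motifs can overlap each other.
Gstm1, chr3:107925381-107925630, minus strand: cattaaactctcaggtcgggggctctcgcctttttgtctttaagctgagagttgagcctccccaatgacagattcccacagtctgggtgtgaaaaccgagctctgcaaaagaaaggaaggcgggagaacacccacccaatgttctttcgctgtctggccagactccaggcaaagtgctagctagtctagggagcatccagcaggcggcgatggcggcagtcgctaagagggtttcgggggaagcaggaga
Gstm6, chr3:107851104-107851353, minus strand: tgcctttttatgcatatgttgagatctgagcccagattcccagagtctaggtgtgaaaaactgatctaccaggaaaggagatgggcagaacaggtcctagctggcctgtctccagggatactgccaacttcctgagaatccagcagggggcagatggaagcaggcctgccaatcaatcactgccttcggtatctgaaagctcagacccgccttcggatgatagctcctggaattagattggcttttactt
Gstm7, chr3:107839188-107839437, minus strand: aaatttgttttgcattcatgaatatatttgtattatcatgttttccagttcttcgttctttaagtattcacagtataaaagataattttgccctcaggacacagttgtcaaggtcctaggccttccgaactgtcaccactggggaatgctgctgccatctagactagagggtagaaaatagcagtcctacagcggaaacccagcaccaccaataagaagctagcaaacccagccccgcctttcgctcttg
Gstm5, chr3:107802887-107803136, plus strand: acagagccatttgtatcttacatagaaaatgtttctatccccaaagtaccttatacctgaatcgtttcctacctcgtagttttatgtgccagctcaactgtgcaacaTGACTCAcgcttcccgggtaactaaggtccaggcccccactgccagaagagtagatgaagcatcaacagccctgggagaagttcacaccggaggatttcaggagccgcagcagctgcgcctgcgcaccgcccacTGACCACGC
None of the 3 motifs was found in these windows of *Gstm1*, *Gstm6* or *Gstm7*. TGATGCAA was in 0 of the 10 members' windows and in 0.887% of those of 21770 protein-coding genes. TGACNNNGC was in the window of 1 member, *Gstm5*, with 1 match 9 bases before the start, and in 9.69% of all windows. TGANTCA was in the windows of *Gstm5*, *Gsta4* and *Gsto1*, at 143, 86 and 172 bases before the start, and in 6.17% of all windows. A match is a description of the letters and not a binding site, and a window without one says nothing about elements further away.

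The members of the other classes were not called. *Gstp1* (ENSMUSG00000060803, chr19:4085405-4088068, minus strand), the most abundant member, was at 123, 109, 92.4, 124 and 78 CPM in the wildtype libraries and at 66, 117, 89.3 and 124 CPM in the *Atf4* null libraries. The groups covered much the same range. Its log2 fold change was -0.09 ± 0.19 (SE), with a 95% interval of -0.50 to 0.32 and an adjusted p of 0.862 in edgeR's quasi-likelihood test. The sign of this value turned to positive under library-size scaling (0.022) and without *Atf4* null replicate 1 (0.069). The pseudogene *Gstp-ps*, which lies inside *Traf5* and shares sequence with *Gstp1*, held 67.5 ± 8.59 CPM in wildtype and 58 ± 12.8 CPM in *Atf4* null lenses. *Gstp1* and *Gstp-ps* together were at 173 ± 26.4 CPM (SD, n = 5) and 157 ± 39.1 CPM (SD, n = 4). The near-identical *Gstp2* was at 1.37 ± 0.217 and 1.06 ± 0.816 CPM, values that are uncertain too, since 28.5% of its stretches of 75 bases were found in the gene alone.

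*Gsta4* (ENSMUSG00000032348, chr9:78090056-78117763, plus strand) was at 18.4, 20, 18.7, 29.9 and 19.6 CPM in the wildtype libraries and at 19.6, 15.8, 11.2 and 12.2 CPM in the *Atf4* null libraries. *Atf4* null replicate 1 lay within the wildtype range and wildtype replicate 4 stood above the rest. The log2 fold change was -0.53 ± 0.24 (SE) with an adjusted p of 0.237 in edgeR's quasi-likelihood test, and its unadjusted p was 0.044. *Gsto1* (ENSMUSG00000025068, chr19:47842686-47853229, plus strand) was at 6.68, 4.94, 9.39, 8.48 and 5.46 CPM in the wildtype libraries and at 4.68, 12.6, 10.2 and 7.28 CPM in the *Atf4* null libraries. It was the one tested member with a positive log2 fold change, 0.31 ± 0.36 (SE), and its 95% interval of -0.46 to 1.09 included 0 (adjusted p = 0.709, edgeR's quasi-likelihood test). *Cfap43* and 2 long noncoding RNA genes overlap *Gsto1* on the other strand.

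*Gstt1* (ENSMUSG00000001663, chr10:75618994-75634445, minus strand) was near the limit of detection and did not pass the filter. It held 0, 8, 7, 1 and 13 counts in the wildtype libraries and 1, 0, 10 and 1 counts in the *Atf4* null libraries. A count of 0 allows up to 3 counts, which is 0.385 CPM in wildtype replicate 1 and 0.36 CPM in *Atf4* null replicate 2, for counting error only. Counts this low say little about a difference between the genotypes.

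No other GST gene reached the wildtype FPKM of *Gstp1*, *Gstm5* or *Gstm1*. Of 19 other GST genes, *Gsta1*, *Gsta2*, *Gsta13*, *Gstm3* and *Gstt4* were without a count in all 9 libraries and 9 were tested. None of the 9 was called by edgeR's quasi-likelihood test, with 0 at an unadjusted p under 0.05, and DESeq2 called none of the 12 it tested, with 1 at an unadjusted p under 0.05. Their median log2 fold change was -0.29. By wildtype FPKM with summed exon length the highest were *Gstz1*, which isomerises maleylacetoacetate in tyrosine breakdown, at 3.65 ± 0.504 FPKM in wildtype and 3.18 ± 0.394 FPKM in *Atf4* null lenses, *Gstk1*, a mitochondrial and peroxisomal enzyme, at 2.46 ± 0.991 and 1.66 ± 0.958 FPKM, and the membrane-bound Mgst1, at 2.26 ± 0.839 and 1.71 ± 0.758 FPKM. *Gstcd*, at 2.22 ± 0.406 and 2.36 ± 0.467 FPKM, was level with Mgst1 in wildtype and above *Gstk1* and Mgst1 by mean in *Atf4* null lenses. With the longest transcript as length the wildtype order was *Gstz1* (8.94), *Gstcd* (4.88), Mgst1 (3.7) and *Gstk1* (2.82). Each of these 4 means lay below those of *Gstm1*, *Gstm5* and *Gstp1* in wildtype lenses. With summed exon length each lay above those of the members *Gsto1* (1.97 FPKM), *Gstm6* (1.51) and *Gstt1* (0.236), and *Gstz1* was level with *Gstm4* (3.7).

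The enzymes that supply GSTs with glutathione were read from a list of 16 genes, 15 of them tested. Of these 4 fell and 1 rose in edgeR's quasi-likelihood test, and the median log2 fold change of the list was -0.29. *Slc7a11*, the transporter that brings in cystine, ran from 53 to 92.2 CPM in wildtype and from 16.7 to 31 CPM in *Atf4* null libraries, a log2 fold change of -1.78 ± 0.22 (SE). *Ggct*, which releases cysteine and pyroglutamate from gamma-glutamyl dipeptides in glutathione turnover, ran from 62.6 to 107 and from 21.2 to 55.3 CPM (-1.35 ± 0.25). *Pgd* and *Idh1*, which make NADPH, were at -0.72 ± 0.18 and -0.55 ± 0.13. *Gsr*, the reductase that uses NADPH to restore glutathione from its oxidised form, was the gene that rose, from 26.7 ± 4.69 to 44.8 ± 9.84 CPM (0.75 ± 0.19).

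Downstream of conjugation, 14 of 20 listed genes for conjugate export and mercapturate formation were tested, and 1 was called, the export pump *Abcc4*, which fell from 22.3 ± 4.14 to 8.27 ± 4.34 CPM (log2 fold change -1.42 ± 0.33, SE). Among 21 listed genes of the NRF2 battery, the set of antioxidant genes that the factor NRF2 is known to activate, 20 were tested, 5 were called lower and 0 higher in edgeR's quasi-likelihood test. DESeq2 also called 5 lower and 0 higher, and 2 that were higher had an unadjusted p under 0.05 in both. The 5 were *Hmox1*, which breaks down heme and fell from 61.2 ± 10.3 to 13.6 ± 6.45 CPM, the peroxiredoxin gene *Prdx1* (log2 fold change -0.65 ± 0.14, SE), and *Slc7a11*, *Abcc4* and *Pgd*, which the lists above also hold. Of 18 listed aldehyde and carbonyl disposal genes, whose substrates overlap with those of *Gsta4*, 17 matched a symbol, 14 were tested and 3 fell. *Aldh1a7* went from 105 ± 34.1 to 22.9 ± 7.74 CPM, *Aldh1a1* from 897 ± 203 to 544 ± 97.7 CPM and *Aldh7a1* from 165 ± 21.5 to 107 ± 23 CPM.

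Some lists of cell type markers moved with the genotype as well. Of 12 lens epithelium markers tested, 7 fell and 1 rose (*Tfap2b*), with a median log2 fold change of -1.24. *Slc7a11* is on this list too. On the log2 scale, *Foxe3*, a transcription factor of the lens epithelium, was at -2.23 and the cadherin gene *Cdh1* at -3.68, while *Pax6* was at -0.06 ± 0.15 (SE). Of 15 lens fiber markers tested, 6 fell, with a median of -0.57. Of 12 retina markers, 5 rose, and their summed level was 188 to 290 CPM in wildtype and 312 to 815 CPM in *Atf4* null libraries. Of 7 blood markers tested, 1 fell (*Hba-a1*) and the median was -0.95, with sums of 231 to 743 CPM in wildtype and 183 to 256 CPM in *Atf4* null libraries. All 8 vascular endothelium markers tested had negative values with a median of -0.68 and adjusted p of 0.0818 or more in edgeR's quasi-likelihood test, and the sums were 311 to 576 and 166 to 371 CPM (311 to 429 in wildtype without replicate 5). Macrophage and pigment cell markers had medians of 0.25 each, with sums of 94.4 to 125 and 31.1 to 157 CPM in wildtype (94.4 to 108 and 31.1 to 63.7 CPM without replicate 5) and 108 to 131 and 45.9 to 119 CPM in *Atf4* null libraries. Mesenchyme markers summed to 430 to 469 CPM in wildtype replicates 1 to 4, to 15900 CPM in wildtype replicate 5 and to 444 to 817 CPM in *Atf4* null libraries. *Pdgfra* was the 1 of 12 called by edgeR's quasi-likelihood test, lower. DESeq2, which gave 5 of them an adjusted p, called 1 lower and 1 higher. *Pdgfra* ran from 180 to 258 CPM in wildtype, replicate 5 included, unlike the list's sum, and from 6.7 to 26.2 CPM in *Atf4* null libraries. It weighs in the wildtype sums, so these do not show how the other markers moved. Skeletal muscle markers summed to 9710 CPM in wildtype replicate 5 and to 18.5 to 40 CPM in the other wildtype libraries, and the lowest *Atf4* null library was at 42.1 CPM. None of these lists' part in the differences of the *Gstm* genes was tested.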

How the data were processed

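Whole lens RNA from 5 wildtype and 4 *Atf4* null embryos was profiled with stranded total RNA libraries. Per the labels and the study's methods, the authors trimmed reads with Trim Galore, removed ribosomal reads and aligned the rest to GRCm39 with HISAT2, and HTSeq counted reads that aligned once and overlapped 1 gene. The deposited values are raw counts per Ensembl gene. HTSeq's summary entries, 44.6% to 47.7% of reads, were left out. Symbols, positions, exon lengths and sequences came from GENCODE vM39 on GRCm39. The study's methods name another Ensembl release for the counting, so counts and exon lengths come from different annotations.

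Counts were analysed with edgeR 4.0.16 in R 4.3.3: filterByExpr, TMM factors, quasi-likelihood test of genotype with no covariate, and Benjamini-Hochberg adjustment over 14903 genes at 0.05. CPM used the TMM-scaled library size, FPKM divided it by summed exon length, and log2 CPM added a prior count of 0.5. Exact permutation tests over the libraries' genotypes were two-sided, with 0.0079 the smallest p possible. No library was a repeat of another (lowest chi-square per degree of freedom 7.7 over 36 pairs). Each library is from a separate embryo. The genes named were all members, the called genes of the lists (at most 4 a list, except where a count of 5 or fewer is spelled out), genes called near the *Gstm* cluster, the 3 other GST genes highest in wildtype FPKM and *Atf4*; *Gstcd*, markers, overlapping genes and genes next to the cluster were named after their values were seen. The members and lists were chosen with earlier results of these data known. The scripts recovered known changes in simulated data. Titles and count tables of the wildtype samples name different libraries, so wildtype replicate numbers are uncertain, while genotype is not. The alternatives tried were DESeq2 1.42.0, edgeR's exactTest, library size alone, TMM without crystallins, other filters, robust dispersion, the replicate number as a block, leaving out each library, and another gene length for FPKM.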

Additional observations from a re-analysis of the deposited data

Results flagged for a closer look

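Over the 10 members in both genotypes, 20 groups of libraries were examined for a single library far from the rest, and 2 stood out, where chance gives about 1 in 20. *Gsta4* in wildtype lenses was one, since replicate 4 was at 29.9 CPM and the other 4 libraries at 18.4 to 20 CPM, a gap of 0.861 of the group's range. *Gstt1* in *Atf4* null lenses was the other, since replicate 3 held 10 counts and the other 3 libraries 0 or 1, a gap of 0.867 of the range. Without wildtype replicate 4, *Gsta4* had a log2 fold change of -0.38 (adjusted p = 0.464 in edgeR's quasi-likelihood test), against -0.53 (adjusted p = 0.237) with all libraries, and it was not called in either.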

How the results depend on the processing

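*Gstm1* and *Gstm7* were called lower under each of 17 alternatives, with log2 fold changes of -2.70 to -2.45 and -1.79 to -1.49. *Gstm6* was called in 14 of the 16 alternatives that tested it, with an adjusted p up to 0.0556. Requiring at least 10 counts in every library removed it, so 2 members were called there. *Gstm5* had an adjusted p of 0.0325 to 0.167 in edgeR and DESeq2 fits and was called in 2 of 17. The count of members called ran from 2 to 4. *Gstp1*, not called in any of them, changed sign under library size alone (0.022), and leaving out 1 library gave log2 fold changes of -0.22 (without *Atf4* null replicate 4) to 0.069 (without *Atf4* null replicate 1). Over all genes, DESeq2 called 1422 and edgeR 880, and leaving out 1 library gave 527 to 1207. The count was 1207 without wildtype replicate 5, the library with muscle and mesenchyme markers, and 527 without *Atf4* null replicate 2, 562 without *Atf4* null replicate 3, 570 without wildtype replicate 2 and 562 without wildtype replicate 3. The cause was not tested. With library size alone 35.7% of called genes were lower, against 62.2%, and the median over all genes moved to 0.12. The replicate number shared by the genotypes did not pair the libraries (correlations of deviations -0.11 to 0.0051, and 0 of 4 libraries closest to their own number), and with it as a block 852 genes and the members *Gstm1*, *Gstm6* and *Gstm7* were called. With the longest transcript as length, wildtype levels moved by more than 1 SD for *Gstp1* (117 FPKM), *Gstm1* (54.1), *Gstm5* (50.4), *Gstm7* (6.51), *Gsto1* (3.61) and *Gstm6* (1.92). *Gstt1*, left out by the filter, was tested by DESeq2 and with no filter on low counts, and was not called in either.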
